A study of Mus musculus with 40 samples.

Results

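The right kidney that mice keep after the left one has been removed was compared with the right kidney of sham-operated mice, 72 h after surgery. The comparison takes the 12 bulk RNA libraries whose labels give 72 h, 6 after unilateral nephrectomy (UNx) and 6 after sham surgery, out of 36 bulk libraries and 40 samples in all. It covers every gene expressed in those libraries. The UNx mice lost the left kidney, and the sham mice were operated on and kept both kidneys. All 12 were male C57BL/6 mice of 8 to 12 weeks, each library came from a mouse with its own number, and all 12 carry the label of batch 2. The sampled tissue was a cross section of the kidney that holds cortex and medulla in a mixture, taken as polyadenylated RNA. The other bulk libraries, used below only for differences between times, come from UNx and sham mice of 24 h (batch 1) and 48 h (batch 2). 4 further mice, 2 sham and 2 UNx, gave single nuclei at 24 h.

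A kidney left alone after nephrectomy receives more blood and filters more plasma, and it enlarges within days, mostly by growth of its tubule cells and in part by their division. A cell that enters division first loads and copies its DNA, under control of the E2F transcription factors, and then builds a spindle, condenses its chromosomes and splits, with genes that are switched on late in the cycle through the DREAM and FoxM1 regulators. The kidney also follows a daily clock, in which the activators Clock and Arntl (Bmal1) drive their own repressors and a set of output factors such as Dbp.

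Values are estimated counts per gene, scaled with the library factors of edgeR to a library of 1000000 counts (CPM). Library totals were 18.3 to 21.9 M counts in sham and 19.8 to 22.1 M counts in UNx, and mitochondrially encoded genes took 13.6 to 15.2% and 14.2 to 16.1% of them. The summed level of 8 proximal tubule markers was 24908 to 31751 CPM in sham and 21220 to 31299 CPM in UNx, so these markers were present at high levels in all 12. 2 libraries stood apart from the rest, UNx replicate 6 and sham replicate 5. Their summed level of 6 markers of the thin limb and inner medulla was 1136 and 934 CPM, against 175 to 277 CPM in the other 10, and they had the highest values on the first principal component. The counts over all genes and over the cell cycle genes are therefore also given without them. In whole tissue, a lower level of a gene can come from fewer cells of a type or from less RNA per cell, and these cannot be told apart here.

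Few genes passed the test at 72 h, and most of the large called changes were rises of genes of cell division. Of 14556 genes tested, 249 were called (1.71%), 176 higher (1.21%) and 73 lower (0.502%). A gene was called at an adjusted p under 0.05 in edgeR's quasi-likelihood test with Benjamini-Hochberg adjustment. In the same test 2515 genes had an unadjusted p under 0.05, so the calls do not count all genes that changed. 87 of the 176 rises lay in 11 lists of cell cycle genes, and none of the falls did. The median log2 fold change of those 87 was 1.16, that of the 89 other rises 0.44 and that of the 73 falls -0.39. Their median levels were 3.52, 33.7 and 27.2 CPM. A small change is harder to call at a low level, so these sizes are not compared at like levels. Among the 79 rises of at least 1 on the log2 scale, 56 were in the cell cycle lists, and 5 genes fell by that much. The 2 groups did not overlap for 299 genes (2.05%), 190 higher and 109 lower in every UNx library. Without UNx replicate 6 and sham replicate 5, 672 genes were called, 392 higher and 280 lower, and 235 of the 249 remained among them.

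**Figure D1:**
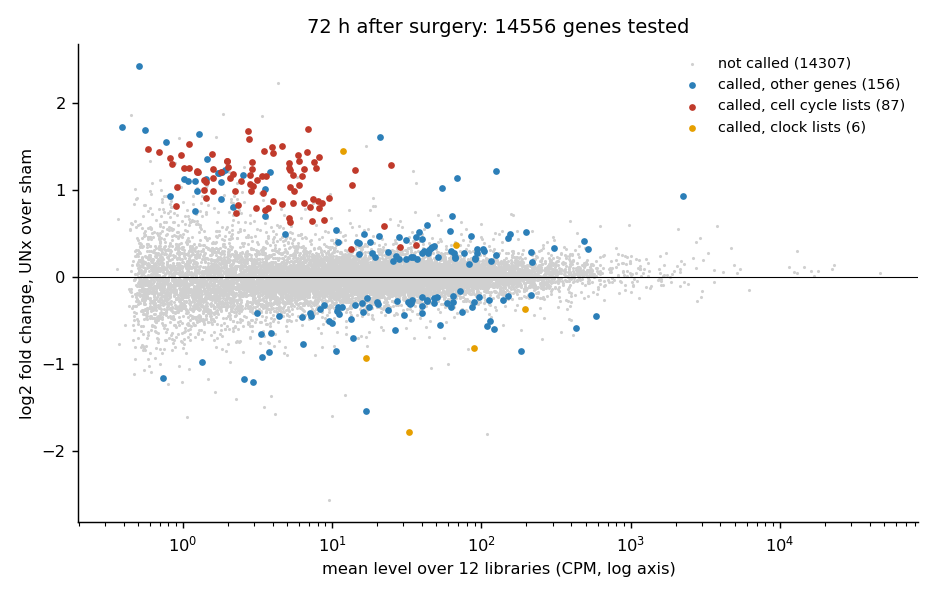
Mean level over the 12 libraries (CPM, log axis) against the log2 fold change of UNx over sham for the 14556 genes tested. Red dots are the 87 called genes of the cell cycle lists, which sit above 0 at low levels, orange dots 6 called clock genes, blue dots the other called genes and grey dots genes that were not called.

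A minority of the replication genes rose, where 1.21% of all genes did. Of 19 tested genes of origin licensing 3 rose, with a median log2 fold change of 0.29 over the list against 0.00 over all genes, and of 28 genes of the replication fork and nucleotide supply 6 rose (median 0.17). Tk1 (ENSMUSG00000025574), thymidine kinase of the salvage pathway, read 3.91 to 6.30 CPM in sham (median 4.34) and 7.45 to 13.8 CPM in UNx (median 11.4). The lowest UNx kidney lay above the highest sham. The log2 fold change was 1.25 (SE 0.15, edgeR adjusted p = 0.00259). Rrm2 (ENSMUSG00000020649), the regulated subunit of ribonucleotide reductase that makes deoxynucleotides, went from 6.97 to 10.1 CPM in sham (median 8.99) to 13.8 to 23.0 CPM in UNx (median 17.9), again with no overlap. Its log2 fold change was 1.05 (SE 0.13, edgeR adjusted p = 0.00259). Pole, the catalytic subunit of the leading-strand polymerase, rose by 0.79 and Uhrf1, which carries DNA methylation to the new strand, by 0.99 on the log2 scale. Smaller rises were those of the sliding clamp Pcna (0.37), of thymidylate synthase Tyms (0.32) and of the helicase subunit Mcm6 (0.34). Mcm5, another subunit of the same helicase, rose by 0.79 and its activator Cdc45 by 0.74.

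Recombination and Fanconi genes, which mend and restart stalled forks, rose in 7 of 21 tested (median 0.65), where 1.21% of all genes rose. Clspn (ENSMUSG00000042489), a checkpoint adaptor at the fork, was 0.652 to 1.36 CPM in sham (median 0.972) and 1.66 to 2.52 CPM in UNx (median 2.25), a log2 fold change of 1.14 (SE 0.19, edgeR adjusted p = 0.0117). No sham kidney reached the lowest UNx kidney. Brca1 rose by 0.99, Fanci and Fancd2, which form 1 complex, by 1.12 and 0.99, and the DNA glycosylase Neil3 by 1.37.

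Most of the mitotic genes rose, where 1.21% of all genes did. The 5 lists of mitotic genes held rises in 13 of 22 kinases and cyclins (median log2 fold change 1.01), 19 of 27 spindle genes (1.09), 15 of 26 kinetochore genes (0.81), 13 of 20 genes of condensation and the passenger complex (1.09) and 6 of 12 cytokinesis genes (0.91). Every tested gene of 4 of these lists had a positive fold change; the kinase list held 21 of 22. Cdk1 (ENSMUSG00000019942), the kinase that starts mitosis, read 2.29 to 4.27 CPM in sham (median 3.06) and 5.24 to 12.7 CPM in UNx (median 7.97). The groups did not overlap, and the log2 fold change was 1.41 (SE 0.21, edgeR adjusted p = 0.00541). Its cyclins rose too, Ccna2 by 1.39, Ccnb1 by 1.51 and Ccnb2 by 1.49, as did Cdc25c (1.47), the phosphatase that activates it, and the kinase Pbk (1.31). Plk1 and Aurka, kinases of centrosome and spindle that were picked out after their values were seen, rose by 1.25 and 1.11.

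Of the spindle genes, Kif20a (ENSMUSG00000003779), a kinesin of the central spindle, had the lowest p of all genes. It was 3.44 to 5.22 CPM in sham (median 4.32) and 8.07 to 13.7 CPM in UNx (median 11.4). The ranges were separate, with a log2 fold change of 1.32 (SE 0.15, edgeR adjusted p = 0.00259). Ckap2 and Ckap2l, which bind spindle microtubules, rose by 1.58 and 1.42, the microtubule bundler Prc1 by 1.34, the chromokinesin Kif22 by 1.33 and the spindle assembly factor Tpx2 by 1.26. At the kinetochore, Cenpm rose by 1.40, Nuf2, a subunit of the Ndc80 complex, by 1.26 and Cenpf by 1.16. Mad2l1, which holds anaphase until chromosomes are attached, rose by 0.80, and Spc25, another subunit of the Ndc80 complex, by 0.59.

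Cdc20 (ENSMUSG00000006398), which switches on the anaphase-promoting complex, had the largest fold change of the cell cycle lists. Its level was 2.43 to 4.10 CPM in sham (median 3.16) and 6.77 to 16.1 CPM in UNx (median 10.6), a log2 fold change of 1.71 (SE 0.21, edgeR adjusted p = 0.00259). The groups were apart by more than the whole range of the shams. Ube2c, the ubiquitin-conjugating enzyme of the same complex, rose by 1.68. Mki67 (ENSMUSG00000031004), the Ki-67 protein that coats mitotic chromosomes and marks cycling cells, was 9.64 to 16.9 CPM in sham (median 15.2) and 26.3 to 50.7 CPM in UNx (median 33.6), a log2 fold change of 1.29 (SE 0.17, edgeR adjusted p = 0.00285). Its ranges did not overlap either. Top2a, which untangles the sister DNAs, rose by 1.23. The passenger proteins Birc5 (survivin) and Cdca8 (borealin) rose by 1.45 and 1.07, and Cdca5 (sororin), which holds sister chromatids together, by 1.53. Among cytokinesis genes, Anln and Depdc1a rose by 1.23 and 1.22, Iqgap3 by 1.16, Racgap1 by 1.05, Ect2, which activates RhoA at the cleavage furrow, by 0.91 and Arhgap11a by 0.85. Cdkn3, a phosphatase of Cdk1 and Cdk2 that lies outside the lists, rose by 1.65.

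**Figure D2:**
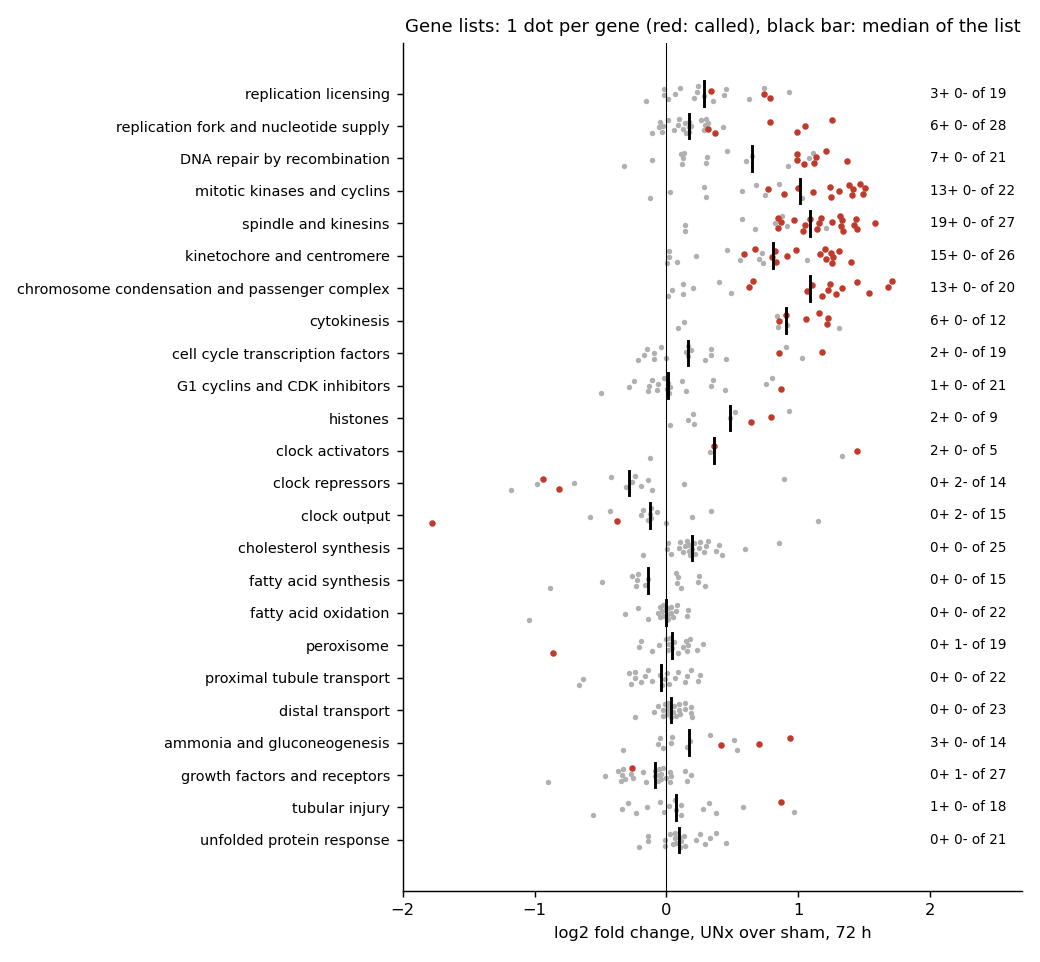
Log2 fold change of UNx over sham at 72 h for each tested gene of 24 lists, red where called, with the median of each list as a black bar and the number called higher (+) and lower (-) at the right. The 5 mitotic lists have medians of 0.81 to 1.09, the replication fork list 0.17 and the list of G1 cyclins and CDK inhibitors 0.01.

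A smaller part of the tested regulators rose than of the mitotic genes (10.5 and 4.76% of 2 lists, against 1.21% of all genes). Of 19 transcription factors of the cell cycle 2 rose (median 0.17), Foxm1, which drives late cell cycle genes, by 1.18 (SE 0.17) and E2f1, which drives replication genes, by 0.86 (SE 0.14). Of 21 G1 cyclins and CDK inhibitors 1 rose (median 0.01), the inhibitor Cdkn1a (p21), from 4.52 to 7.11 CPM in sham (median 5.20) to 8.09 to 17.0 CPM in UNx (median 9.37). The highest UNx value, in replicate 1, stood well above the other 5. The log2 fold change of Cdkn1a was 0.87 (SE 0.18, edgeR adjusted p = 0.0323). The values of Ccnd1 (-0.13, edgeR adjusted p = 0.558) and Myc (-0.28, edgeR adjusted p = 0.556) did not pass the test. In the list of histones and their chaperones 2 of 9 tested rose (median 0.48), the variant H2afx by 0.64 and the chromatin remodeller Hells by 0.79. Polyadenylated libraries miss most replication-dependent histone messages.

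**Figure D3:**
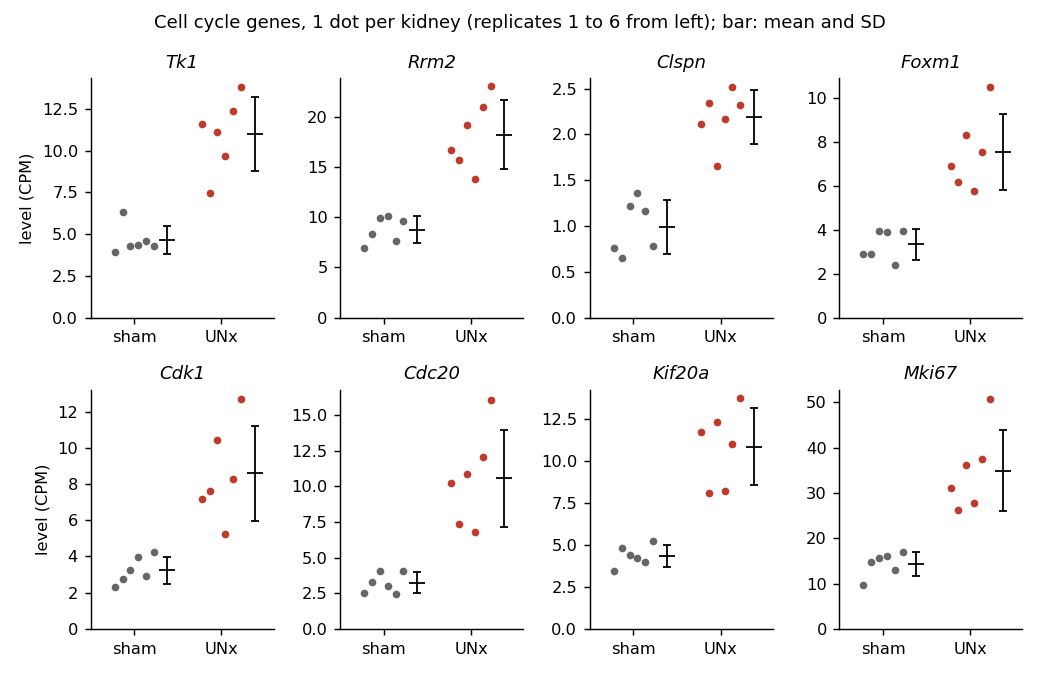
Levels in CPM of 8 cell cycle genes in each of the 6 sham (grey) and 6 UNx kidneys (red), with mean and SD at the right of each group. The groups do not overlap for any of the 8; Kif20a, for example, is 3.44 to 5.22 CPM in sham and 8.07 to 13.7 CPM in UNx.

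The rise was present in each UNx kidney. Over the 87 called cell cycle genes, the median log2 ratio to the sham mean was 1.06, 0.80, 1.10, 0.80, 1.18 and 1.53 in UNx replicates 1 to 6 (0.1 CPM added to each level). It was -0.31, 0.01, 0.15, 0.15, -0.12 and 0.18 in the 6 shams. These genes were chosen on the same libraries, so the ratios describe the spread between kidneys and test nothing. The highest ratio belonged to UNx replicate 6, 1 of the 2 libraries with high inner medulla markers. Without that library and sham replicate 5 the median log2 fold change of the 87 genes was 0.98 in place of 1.16, and 79 were called. Leaving out each of the 12 libraries in turn, 62 of the 87 were called every time, as were 22 of the 89 other rises and 9 of the 73 falls.

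Promoters of called mitotic genes are shown because many of them hold 2 short elements. One is the CHR, searched as TTTGAA or TTCGAA, the element bound by the DREAM complex. The other is the CCAAT box, searched as CCAAT, which is bound by NF-Y. Both strands were searched, in windows of 250 bases before to 50 after the first RefSeq start of each gene (GRCm38.p6). Matches of the 2 motifs were counted separately, also where they overlap. Of 27025 promoters 19.4% held a CHR match, 37.9% a CCAAT box and 7.70% both. Of the 66 called genes of the mitotic lists 58 had a promoter in the table, and 43 of them (74.1%) held a CHR match, 44 (75.9%) a CCAAT box and 36 (62.1%) both. Of 13 promoters for the 16 called genes of the replication and repair lists, 2 held a CHR match and 9 a CCAAT box. The 75 promoters of rises outside the cell cycle lists held both in 11 cases (14.7%), and the 61 promoters of genes that fell in 2 (3.28%). A match is a run of letters and not a measured site. Mitotic genes that were not called were not counted, so membership of the lists and the rise at 72 h cannot be told apart in these shares. 4 of the promoters with both elements follow, 5′ to 3′ on the strand of the gene, with the matches on either strand in capitals (TTCAAA and ATTGG are TTTGAA and CCAAT on the other strand).
Cdc20, chr4:118437294-118437593, minus strand: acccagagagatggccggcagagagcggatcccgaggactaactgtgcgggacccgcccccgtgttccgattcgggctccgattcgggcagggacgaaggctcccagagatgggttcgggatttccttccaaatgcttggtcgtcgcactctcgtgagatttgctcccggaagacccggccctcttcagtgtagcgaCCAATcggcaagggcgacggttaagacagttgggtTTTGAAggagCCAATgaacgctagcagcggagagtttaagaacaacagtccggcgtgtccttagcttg
Cdk1, chr10:69352863-69353162, minus strand: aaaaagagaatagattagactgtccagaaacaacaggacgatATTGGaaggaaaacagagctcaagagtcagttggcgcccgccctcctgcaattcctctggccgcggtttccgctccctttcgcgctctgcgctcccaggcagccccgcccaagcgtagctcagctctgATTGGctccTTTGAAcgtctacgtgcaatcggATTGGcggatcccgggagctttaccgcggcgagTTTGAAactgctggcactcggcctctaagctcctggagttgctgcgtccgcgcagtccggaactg
Ube2c, chr2:164769679-164769978, plus strand: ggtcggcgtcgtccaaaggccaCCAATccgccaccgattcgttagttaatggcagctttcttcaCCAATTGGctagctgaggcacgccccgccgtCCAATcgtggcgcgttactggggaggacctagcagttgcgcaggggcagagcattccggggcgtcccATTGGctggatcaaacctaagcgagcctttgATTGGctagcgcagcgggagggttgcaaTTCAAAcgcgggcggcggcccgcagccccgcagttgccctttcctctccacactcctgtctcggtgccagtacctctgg
Ckap2l, chr2:129297163-129297462, minus strand: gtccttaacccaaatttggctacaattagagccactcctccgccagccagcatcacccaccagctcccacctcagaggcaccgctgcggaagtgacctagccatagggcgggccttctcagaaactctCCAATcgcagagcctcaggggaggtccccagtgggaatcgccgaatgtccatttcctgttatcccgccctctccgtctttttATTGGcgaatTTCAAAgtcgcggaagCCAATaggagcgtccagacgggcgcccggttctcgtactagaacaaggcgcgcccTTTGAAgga
The CHR match of Cdc20 begins 18 bases before the start and its CCAAT boxes 53 and 8 bases before it. Cdk1 has CHR matches at 71 and 15 bases, and Ube2c and Ckap2l have one at 29 and 30 bases before the start, with another in Ckap2l at base 42 after it. In Ube2c, CCAAT boxes at 186 and 183 bases, on opposite strands, overlap.

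Whether the response of the cell cycle genes differed from that at the earlier times was tested as the difference of the UNx effects in 1 fit of all 36 bulk libraries. Each time has its own shams, but 24 h and batch 1 cannot be told apart. Of 15093 genes tested, 626 differed between 72 h and 24 h (4.15%), 413 with a higher effect at 72 h (2.74%) and 213 with a lower one (1.41%), and 2210 between 72 h and 48 h (14.6%). Of the 227 cell cycle genes in that fit, 1 differed from 24 h, the retinoblastoma gene Rb1 (-0.33, edgeR adjusted p = 0.0256). 9 differed from 48 h, 3 with a higher effect at 72 h (5.86% of all genes) and 6 with a lower one (8.78%). They are named because they are few, after their values were seen. Higher effects at 72 h were those of H2afz (0.57), the histone acetyltransferase Hat1 (0.48) and the microtubule polymerase Ckap5 (0.36). Lower ones were those of Pold2 (-0.66), Pold3 (-0.44), the primase subunit Prim2 (-0.53), E2f4 (-0.48), Myc (-1.01) and Ncaph2 (-0.18), and none of these 10 genes was called at 72 h. For the genes above the differences had wide errors: that of Cdc20 was 0.87 (SE 0.49) against 24 h and 0.85 (SE 0.40) against 48 h, and that of Mki67 0.46 (SE 0.39) and 0.32 (SE 0.37). A missed threshold does not show that the effects were alike.

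The separate comparisons at 24 h and 48 h called 84 of 195 and 63 of 222 tested cell cycle genes higher, where 14.2% and 16.9% of all genes were. They called 5 lower at each time, where 13.1% and 16% of all genes were. Of all genes tested, 27.3% were called at 24 h and 32.9% at 48 h. The median log2 fold change over the lists was 0.42 at 24 h, 0.36 at 48 h and 0.60 at 72 h. These medians cover unlike sets of 195, 222 and 223 tested genes. Over the same 227 genes in the fit of all 36 libraries, the median difference of the 72 h effect was 0.055 from 24 h and 0.20 from 48 h. The levels themselves are given without a test between times. Scaled over all 36 libraries, Cdk1 averaged 0.869 CPM in the 24 h shams, 4.43 CPM in the 48 h shams and 2.95 CPM in the 72 h shams, and 1.85, 7.04 and 7.86 CPM in the UNx kidneys of those times. The 48 h libraries differ in make-up: 5 of the 6 UNx libraries of 48 h had 25.8 to 26.4% of counts from mitochondrially encoded genes, against 15.2% in the other one and 14.0 to 15.5% in their shams. Among the 48 h libraries the share nearly follows the group, so its part in the differences from 48 h and that of UNx cannot be told apart. The 24 h libraries were high in this share in both groups, with 21.5 to 24.9% in UNx and 23.5 to 26.7% in sham. At 72 h it was 14.2 to 16.1% in UNx and 13.6 to 15.2% in sham. With the share as a covariate 318 genes differed between 72 h and 24 h in edgeR.

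Of 34 tested clock genes, 2 activators rose, and 2 repressors and 2 output genes fell (1.71% of all genes were called). Arntl (ENSMUSG00000055116), the partner of Clock, read 2.29 to 10.9 CPM in sham (median 6.15) and 10.9 to 26.6 CPM in UNx (median 17.8). The groups touched, since sham replicate 1 and UNx replicate 6 were nearly equal. The log2 fold change was 1.45 (SE 0.31, edgeR adjusted p = 0.0334). Clock itself rose by 0.36 (SE 0.062) from 54.9 to 67.6 CPM in sham (median 58.6) to 68.0 to 85.6 CPM in UNx (median 77.2), without overlap. Npas2, picked out after its value was seen and which can stand in for Clock, had a log2 fold change of 1.33 and missed the threshold (adjusted p = 0.0563).

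The 4 genes that fell are known targets of the activators. Dbp (ENSMUSG00000059824), a transcription factor of the clock's output, had the largest called fall, from 30.6 to 77.1 CPM in sham (median 48.5) to 3.77 to 30.0 CPM in UNx (median 12.1). The highest UNx kidney lay just under the lowest sham. The log2 fold change was -1.78 (SE 0.36, edgeR adjusted p = 0.027). Nr1d2 (REV-ERB beta), a repressor of Arntl, was 88.9 to 141 CPM in sham (median 114) and 37.0 to 79.1 CPM in UNx (median 65.9), and fell without overlap, with a log2 fold change of -0.82 (SE 0.16). Per3 fell by 0.93 on the log2 scale (SE 0.21), with medians of 21.3 and 11.6 CPM, and Tef, the other output factor of Dbp's family, by 0.37 (SE 0.088), with medians of 223 and 172 CPM. The ranges of both overlapped between groups. Other clock genes, also chosen after their values were seen, did not pass, with -0.70 for Nr1d1, -1.18 for Ciart, -0.98 for Bhlhe41, 0.89 for Cry1 and 1.15 for Nfil3, a repressor that acts against Dbp. The median over the repressors was -0.28 and over the output genes -0.12.

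**Figure D4:**
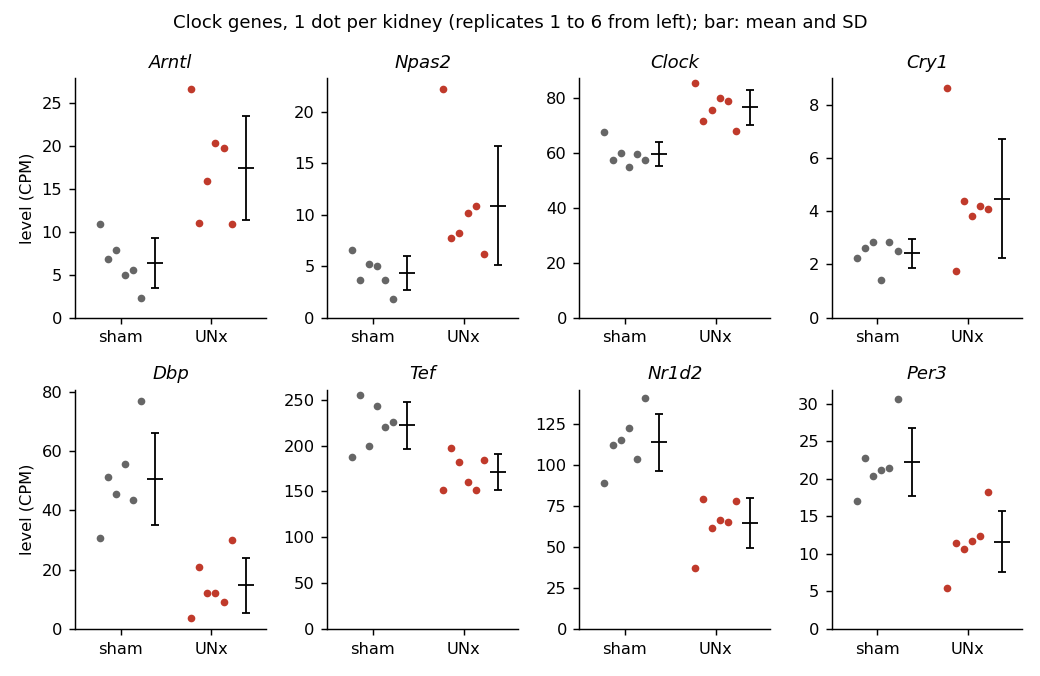
Levels in CPM of 8 clock genes in each of the 6 sham (grey) and 6 UNx kidneys (red), with mean and SD at the right of each group. Clock, Dbp and Nr1d2 do not overlap between groups, and UNx replicate 1, the leftmost red dot, is the highest of its group in the top row and the lowest for Dbp, Nr1d2 and Per3.

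UNx replicate 1 was the extreme UNx kidney for 5 of the 6 called clock genes and for 21 of the 34 tested. Without it 4 clock genes were called; Arntl had a log2 fold change of 1.29 (adjusted p = 0.0799) and Tef one of -0.34 (adjusted p = 0.111), while Clock, Dbp, Nr1d2 and Per3 were still called. Over the 12 fits that leave out 1 library, the adjusted p of Arntl ranged from 0.0158 to 0.0826 and that of Dbp from 0.0059 to 0.0715. Clock was called in all 12, Nr1d2 in 10, Dbp in 6, Arntl in 4 and Per3 and Tef in 3 each. Without the 2 libraries high in inner medulla markers all 6 were called. The labels give hours after surgery and no time of day, so a shift of the clock and a shift in the hour of sampling cannot be told apart. The UNx effect on Dbp was -0.79 at 24 h (edgeR adjusted p = 0.00325) and -0.87 at 48 h (edgeR adjusted p = 0.0724), and the difference of the 72 h effect from either did not pass the test (-0.98, SE 0.47, and -0.92, SE 0.48). Of the clock lists, Cry1 differed between 72 h and 48 h (by 1.41, SE 0.34, edgeR adjusted p = 0.00491), as did Csnk1d, Por and Herpud1. Coq10b differed between 72 h and 24 h, and none of the 5 was called at 72 h. Over all genes 14.6% differed from 48 h and 4.15% from 24 h, so these few do not set the clock lists apart. The mitochondrial share of the 48 h libraries limits the first comparison here too.

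Promoters of 3 of the 6 called clock genes are shown with elements that clock factors are known to bind, and those of Clock, Dbp and Nr1d2 are not shown. The elements were searched in the same way as the E-box CACGTG (7.24% of all promoters), the D-box TTATGTAA (0.955%) and the ROR element TAGGTCA (2.64%). Of the 61 promoters of genes that fell, 5 held an E-box (8.20%), 2 a D-box (3.28%) and 1 a ROR element (1.64%). Of the 75 promoters of rises outside the cell cycle lists, 8 held an E-box (10.7%), 0 a D-box and 1 a ROR element (1.33%). These shares use the first listed window of each gene. The part of the matches in the changes was not tested. Per3 holds 2 D-boxes, the element bound by Dbp and Tef. Tef holds an E-box, the element bound by Clock with Arntl, in its first listed window of 2. The second of 2 listed windows of Arntl, chosen because it has the match, holds a ROR element, to which Nr1d2 binds as a repressor. Matches are in capitals.
Per3, chr4:151044616-151044915, minus strand: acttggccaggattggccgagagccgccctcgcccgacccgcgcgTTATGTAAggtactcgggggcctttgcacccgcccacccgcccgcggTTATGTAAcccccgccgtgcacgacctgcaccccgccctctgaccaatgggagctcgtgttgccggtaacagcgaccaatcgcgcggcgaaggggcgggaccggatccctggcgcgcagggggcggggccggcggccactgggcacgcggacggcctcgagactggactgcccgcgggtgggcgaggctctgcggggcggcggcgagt
Tef, chr15:81802423-81802722, plus strand: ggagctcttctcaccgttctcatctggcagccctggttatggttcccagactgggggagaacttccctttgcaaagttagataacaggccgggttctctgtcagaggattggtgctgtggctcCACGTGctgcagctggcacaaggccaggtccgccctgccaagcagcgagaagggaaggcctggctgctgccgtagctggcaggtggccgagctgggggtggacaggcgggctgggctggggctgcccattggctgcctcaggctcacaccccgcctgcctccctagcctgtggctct
Arntl, chr7:113207261-113207560, plus strand: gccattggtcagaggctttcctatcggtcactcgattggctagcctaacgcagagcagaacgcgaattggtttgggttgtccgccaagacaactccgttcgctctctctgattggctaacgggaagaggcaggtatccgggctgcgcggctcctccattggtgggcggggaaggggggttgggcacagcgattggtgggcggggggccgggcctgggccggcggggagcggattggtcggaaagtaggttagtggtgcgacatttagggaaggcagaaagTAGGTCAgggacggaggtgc
The D-boxes of Per3 begin 205 and 158 bases before the start, the E-box of Tef 127 bases before it, and the element of Arntl at base 31 after it.

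Among metabolic lists, that of ammonia production and gluconeogenesis held calls, 3 of 14 tested (1.21% of all genes rose) with a median log2 fold change of 0.17. Pck1 (ENSMUSG00000027513), which commits carbon to glucose, was 1109 to 2237 CPM in sham (median 1327) and 2108 to 3892 CPM in UNx (median 2875). The highest sham overlapped the lowest UNx kidney. Its log2 fold change was 0.94 (SE 0.19, edgeR adjusted p = 0.0266). Slc38a3 (ENSMUSG00000010064), the glutamine carrier SNAT3 of the basolateral membrane, was 33.3 to 58.4 CPM in sham (median 48.5) and 64.4 to 92.6 CPM in UNx (median 77.8), apart in every kidney, with a log2 fold change of 0.70 (SE 0.12, edgeR adjusted p = 0.0135). Glud1 (ENSMUSG00000021794), which releases ammonia from glutamate, rose by 0.41 (SE 0.09) from a median of 431 to 529 CPM, also without overlap. G6pc, the last step of glucose release, was higher in each UNx kidney than in any sham but did not pass the test (0.51, edgeR adjusted p = 0.0728). Glul, which makes glutamine back from ammonia, and pyruvate carboxylase Pcx had values of -0.065 and -0.047. Leaving out each library in turn, Slc38a3 was called in all 12 fits, Pck1 in 7 and Glud1 in 2, and all 3 were called without the 2 libraries high in inner medulla markers. At the earlier times the log2 fold change of Slc38a3 was 0.87 (24 h) and 0.73 (48 h), and that of Pck1 0.75 and 0.66.

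Other rises were scattered over functions. Nat8f5, of the N-acetyltransferase family 8, had medians of 8.55 and 32.1 CPM (log2 fold change 1.62, SE 0.37), but its groups overlapped, and its level is uncertain because close paralogs can share its reads. Gstm1, a glutathione transferase, was the only called gene of 16 NRF2 targets (0.32, SE 0.061), where 1.71% of all genes were called. The following genes were picked out after their values were seen. Ttr, transthyretin, which carries thyroid hormone and retinol-binding protein, went from 42.9 to 108 CPM in sham (median 72.9) to 124 to 229 CPM in UNx (median 157), with separate ranges and a log2 fold change of 1.23 (SE 0.22, edgeR adjusted p = 0.0144). Slc16a1, the lactate and pyruvate carrier MCT1, rose by 1.02 (SE 0.21) and Psat1, of serine synthesis, by 0.60 (SE 0.14). Pappa2, a protease that frees IGF from its binding proteins, rose by 1.19 (SE 0.28) at levels of 0.517 to 3.72 CPM. Of 14 tested tubulin genes 5 rose and none fell (median 0.40), where 1.21% of all genes rose. Those that rose were Tubb5 (0.53), Tubb4b (0.52), Tuba1b (0.50), Tuba1c (0.47) and Tuba4a (0.45). The microtubule destabilizer Stmn1 rose by 0.46.

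The falls were small and touched varied functions. Of the 73 genes, 49 fell by less than 0.5 on the log2 scale. The lowest p belonged to Foxn3, a forkhead repressor, at 38.9 to 49.6 CPM in sham (median 45.1) and 34.1 to 36.6 CPM in UNx (median 35.4), separate in every kidney (log2 fold change -0.33, SE 0.054, edgeR adjusted p = 0.00994). Plau (ENSMUSG00000021822), the urokinase that activates plasminogen, was the only called gene of 22 matrix genes, where 1.71% of all genes were called. Plau was 418 to 653 CPM in sham (median 504) and 308 to 407 CPM in UNx (median 335). Its ranges did not overlap and its log2 fold change was -0.59 (SE 0.11, edgeR adjusted p = 0.014). Slc25a36, a mitochondrial pyrimidine nucleotide carrier, was 122 to 186 CPM in sham (median 141) and 86.4 to 106 CPM in UNx (median 100.4), a log2 fold change of -0.60 (SE 0.10). Here too the groups were separate.

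Hao2, a peroxisomal hydroxyacid oxidase, fell by 0.86 (SE 0.19), the only call among 19 tested peroxisome genes (0.502% of all genes fell), with 167 to 357 CPM in sham (median 223) and 80.7 to 165 CPM in UNx (median 134). Insr, the insulin receptor, was the only called gene of 27 growth factors and receptors, where 1.71% of all genes were called. Insr fell by 0.26 (SE 0.059), from a median of 122 to 105 CPM. Pik3ip1, an inhibitor of PI3 kinase, fell by 0.78, and Pik3ca, the kinase's catalytic subunit, by 0.29. Bnip3l, a receptor for the removal of mitochondria, fell by 0.23. Gabarapl1, a protein of autophagosomes, fell by 0.45 and Rb1cc1, which starts their formation, by 0.22; these 2 and Pik3ca were chosen after their values were seen. Pitpnc1, a phosphatidylinositol transfer protein, fell by 0.35, Ubxn7 by 0.23 and Zbtb44 by 0.28.

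Some falls were larger. Ces1g, a carboxylesterase with close paralogs, had medians of 22.6 and 8.98 CPM (log2 fold change -1.55), Il5ra, a cytokine receptor chain, 4.08 and 1.62 CPM (-1.21), and the serotonin transporter Slc6a4 4.63 and 2.88 CPM (-0.87). The mitochondrial carrier Slc25a47 had a log2 fold change of -0.98 and the matrix protein Hmcn2 one of -0.86. Many of these calls depended on the setting. Of 24 alternatives, Ces1g and Slc6a4 stayed called in 11 each, Il5ra in 14, Hmcn2 in 15 and Slc25a47 in 16. Leaving out each library in turn, Ces1g was called in 3 of 12 fits. Irf8, a transcription factor of myeloid cells, fell by 0.42 (SE 0.075), and Tbxas1, thromboxane synthase, by 0.70 (SE 0.12), with medians of 17.6 and 9.93 CPM and no overlap. None of 5 macrophage markers was called, all 5 had negative fold changes, and their sum was 70.3 to 109 CPM in sham and 64.1 to 99.2 CPM in UNx. Dmrt2, a transcription factor, and Kit, a receptor tyrosine kinase named after its value was seen, fell by 0.92 and 0.35. Of 24 alternatives Dmrt2 stayed called in 11 and Kit in 17, and Dmrt2 was called in 3 of the 12 fits with 1 library left out. Scaled over all 36 libraries, Dmrt2 was 2.13 to 5.80 CPM in sham and 2.08 to 2.21 CPM in UNx at 72 h. None of 4 intercalated cell markers was called over the 12 libraries, and all 4 were negative. Their sum was 165 to 231 CPM in sham and 143 to 179 CPM in UNx. Atp6v1g3, 1 of the 4, was called without the 2 libraries high in inner medulla markers. The part of these cell types in the falls was not tested.

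**Figure D5:**
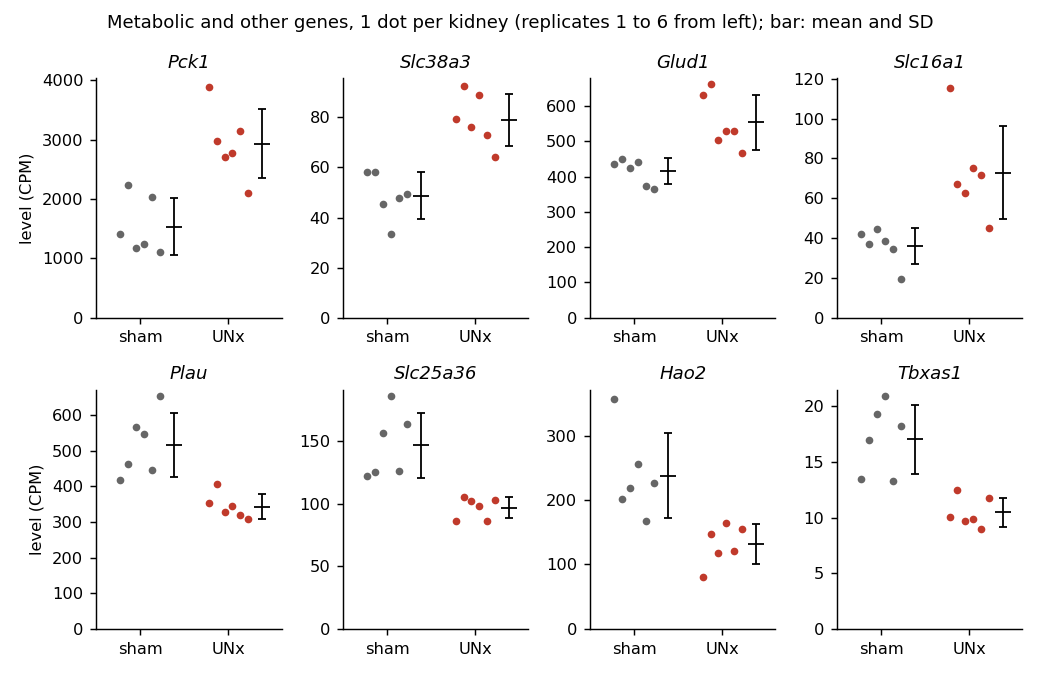
Levels in CPM of 4 genes that rose (top) and 4 that fell (bottom) in each of the 6 sham (grey) and 6 UNx kidneys (red), with mean and SD at the right of each group. Pck1 is the only one of the 8 whose groups overlap.

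Over all genes 1.71% were called, so a list this short can hold no call without its function being shown to be unchanged. Many lists of kidney functions held no call in the fit of the 12 libraries. These were proximal tubule transport (22 tested), distal transport (23), water and urea transport (8), intercalated acid-base genes (16), the renin-angiotensin system (9), immediate early genes (15), hypoxia (16), the unfolded protein response (21), heat shock (18), interferon (16), ribosome assembly (22), fatty acid synthesis (15), fatty acid oxidation (22), drug and steroid metabolism (25), androgen-responsive genes (14) and calcium and magnesium handling (19). Cholesterol synthesis, with 24 of 25 genes positive and a median of 0.20, had none either, nor had heat shock genes, with 17 of 18 positive (median 0.19). Cyp24a1, which inactivates vitamin D, had the widest difference of a gene that missed the threshold among these lists, with medians of 192 and 40.1 CPM and overlapping groups (-1.81, SE 0.45, adjusted p = 0.059). Nhp2, of ribosome assembly, missed it narrowly (0.51, edgeR adjusted p = 0.0561). Without the 2 libraries high in inner medulla markers some members of these lists were called. Among them were Atp6v0d2 of the acid-base list (-0.36), Ddit4 of the hypoxia list (0.75) and Dnaja1 of the heat shock list (0.52). Of 18 tested injury markers Cdkn1a was called, and the injury proteins Havcr1 (KIM-1) and Lcn2 had values of -0.56 (SE 0.60) and 0.37 (SE 0.31). None of the tested members of 18 lists of cell type markers was called over the 12 libraries. Some lists were barely tested, with 2 of 7 lymphocyte, 1 of 4 neutrophil, 1 of 6 adrenal and 1 of 4 muscle markers. Without the 2 libraries high in inner medulla markers some members were called. Among them were Egfl7 of the endothelium (-0.30), Cldn4 of the thin limb list (-0.47) and Atp6v1g3 of intercalated cells (-0.24).

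The nuclei of 24 h show where some of these genes were read in the kidney, as a description of 4 mice at another time. They were 16500 nuclei in 30 classes of the authors, named here by their short labels, of which 23 had at least 10 nuclei in each mouse, and 18 cell barcodes occurred in more than 1 library. Only those 23 classes were compared, which leaves out those labelled Macro, T cell and B cell, and the class MD held 10 to 16 nuclei a mouse. No doublet caller was run, and the labels do not say how doublets were treated. Levels are CPM of the summed counts of a class. Pappa2 had its highest level in the class labelled MD, at 537 to 1822 CPM in the 4 mice, where the median class had 0.864. Tbxas1 was highest in the same class, at 235 to 1061 CPM. Kit and Dmrt2 were highest in the class ICA, at 345 to 918 and 91.1 to 340 CPM. Plau was highest in MTAL, at 253 to 387 CPM, and Hmcn2 in PTS1, at 41.3 to 78.9 CPM. Each of these 6 genes had that class as its highest in 4 of 4 mice. Slc38a3 was highest in PTS3 (22.6 to 40.6 CPM) and Pck1 in PTS2 (295 to 744 CPM), each in 3 of 4 mice. Mki67 and Top2a, with 434 and 414 counts over all nuclei, had their highest mean in the class Uro, but it was the highest class in only 2 of 4 mice.

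Of the genes with the lowest p for a difference between times, 11 are given, and none of them was called at 72 h itself. Compared with 24 h, the effect at 72 h was higher for Ndufs5, a subunit of complex I (0.82), Hypk (2.85) and the prefoldin subunit Pfdn5 (0.85) and lower for Ormdl2 (-0.60) and Mtmr1 (-0.47). For the first 3 the 24 h shams, of batch 1, were the high group. Scaled over all 36 libraries, Hypk averaged 53.8 CPM (12.5 to 77.4) in them and 7.09 CPM in the 24 h UNx kidneys. At 72 h it averaged 9.10 CPM in sham and 8.69 CPM in UNx. Pfdn5 averaged 237 and 125 CPM at 24 h, and Ndufs5 111 and 64.9 CPM. Compared with 48 h it was higher for Bcl2l2 (0.44), Las1l (0.37) and Nek9 (0.42) and lower for Bola3 (-1.14), the ribosomal protein Rpl35 (-0.93) and the mitochondrially encoded mt-Nd1 (-1.46). The effects of these 11 genes at 72 h itself ranged from -0.16 to 0.14. Of genes called at 72 h, Gstm1 and Pitpnc1 had a lower effect than at 48 h (-0.53 and -0.35), as had Gabarapl1 (-0.38), and Stmn1 a higher one than at 24 h (0.58).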

How the data were processed

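Bulk kidney RNA was prepared with a stranded kit for polyadenylated mRNA, per the labels' protocols. The authors deposited estimated counts per gene; the submitters' processing notes name Salmon 1.5.0, FastQC 0.11.8 and GRCm39, and name no settings or filters. For the nuclei, estimated counts per nucleus and another column, the authors' class of each nucleus, were deposited (alevin, Seurat and mm10 per the processing notes), and they served only for levels. Bulk counts were rounded and fitted with edgeR 4.0.16 in R 4.3.3 (TMM factors, filterByExpr, quasi-likelihood test of UNx against sham over the 12 libraries, two-sided, Benjamini-Hochberg adjustment over all genes tested). Differences between times came from contrasts over 36 libraries. 127 of 28467 genes had no symbol. Depth was 18.3 to 22.1 M counts per library, and the lowest chi-square per gene between replicates was 10.3, so no pair agreed within sampling noise. DESeq2 1.42.0, limma 3.58.1 voom, other filters, scalings and covariates and each library left out were alternatives. Named genes were the 10 lowest p and 10 largest changes in each direction with a mean of at least 1 CPM (unnamed and predicted genes passed over), up to 6 called members of each list with the lowest p, or 1 where none was called, and the 3 lowest p in each direction for each difference between times; others are said to be chosen after their values were seen. Some results are not reported here. The members and lists were chosen with earlier results of these data known. The test was tried on simulated data with known changes. Promoters are RefSeq's on GRCm38.p6, and no coordinates were taken from the files.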

Additional observations from a re-analysis of the deposited data

Results flagged for a closer look

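In a group of 6 kidneys, a library was picked out where its gap to the nearest other over the whole range exceeded Dixon's critical value. This held for 21 of 288 groups of named genes, where chance alone gives about 1 in 20. UNx replicate 1 stood apart for Cdkn1a at 17.0 CPM, Havcr1 at 7.38 CPM, Npas2 at 22.2 CPM and Slc6a4 at 1.19 CPM. UNx replicate 4 stood apart for Mme at 186.5 CPM and Prim2 at 3.39 CPM. UNx replicate 6 stood apart for Arhgap11a at 15.7 CPM, Bola3 at 31.0 CPM, Cenpf at 12.9 CPM, Ckap5 at 45.3 CPM, Mad2l1 at 11.4 CPM and Prc1 at 12.8 CPM. Sham replicate 1 stood apart for Arhgap11a at 3.91 CPM and Bnip3l at 93.6 CPM. Sham replicate 2 stood apart for Prim2 at 5.65 CPM, Spc25 at 20.9 CPM and Tk1 at 6.30 CPM. Sham replicate 4 stood apart for Rpl35 at 99.0 CPM. Sham replicate 5 stood apart for Ddit4 at 16.0 CPM and Lcn2 at 5.42 CPM. Sham replicate 6 stood apart for Anln at 4.83 CPM.

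For 29 differences of named genes the effect of UNx at 72 h differed from that at another time in edgeR's test of the difference itself. The log2 difference of the effect at 72 h from that at 24 h was past the threshold for Hypk (2.85), Pfdn5 (0.85), Ndufs5 (0.82), Nhp2 (0.65), Stmn1 (0.58), Rb1 (-0.33), Mtmr1 (-0.47) and Ormdl2 (-0.60). That from the effect at 48 h was past it for Cry1 (1.41), Ddit4 (0.92), H2afz (0.57), Hat1 (0.48), Bcl2l2 (0.44), Nek9 (0.42), Las1l (0.37), Ckap5 (0.36), Ncaph2 (-0.18), Pitpnc1 (-0.35), Gabarapl1 (-0.38), Pold3 (-0.44), Pfdn5 (-0.47), E2f4 (-0.48), Prim2 (-0.53), Gstm1 (-0.53), Pold2 (-0.66), Rpl35 (-0.93), Myc (-1.01), Bola3 (-1.14) and mt-Nd1 (-1.46). Among the 48 h libraries the mitochondrial share nearly follows the group, so its part in these and that of UNx cannot be told apart.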

How the results depend on the processing

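The calls at 72 h kept their sign wherever they were tested (236 of the 249 had a value with a mean of at least 1 CPM required), and 62 of the 87 cell cycle calls, 22 of the 89 other rises and 9 of the 73 falls were called with each library left out. The 72 h count was 664 with DESeq2's Wald test, 809 with voom, 163 in a fit of 24 libraries, 5 for a change beyond 0.5 on the log2 scale and 672 without the 2 libraries high in inner medulla markers, a choice made after seeing the data. It ran from 102 to 677 with 1 library left out: 677 without UNx replicate 6, 102 without UNx replicate 5, 109 without sham replicate 4, 118 without sham replicate 6, 125 without UNx replicate 1, 141 without UNx replicate 3, 148 without sham replicate 3 and 165 without UNx replicate 4. Replicate numbers gave no sign of pairing the mice: same-numbered libraries correlated at -0.29 to 0.14, and 1 of 6 numbers matched its own best. Low correlations cannot show that the mice were not handled in pairs. With the replicate block 120 genes were called, 108 of them among the 249. Differences from 24 h numbered 952 with the Wald test, 1849 with voom, 364 with no filter, 318 with the mitochondrial share as covariate and 1019 in a fit of 2 time points, and 376 to 890 with 1 library left out (376 without sham 24 h replicate 6, 405 without sham 24 h replicate 4). Differences from 48 h numbered 4031 with voom and 1653 to 3766 with 1 library left out (3766 without UNx 48 h replicate 6). They numbered 0 in edgeR with that covariate (651 at an unadjusted p under 0.05) and without UNx replicates 1 to 5 of 48 h (1014). Among 48 h libraries the covariate nearly follows the group, and the second fit has 1 UNx library of 48 h, assumed to vary like the other groups, so neither 0 bears on whether the effects differ. The cause of these shifts was not tested. Of 3451 alternative values of single genes at 72 h, 2952 stayed on their side of the threshold, 429 lost it, 70 gained it and 0 reversed. Depth limits genes of few CPM, and estimated counts leave reads shared by close paralogs uncertain.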

Other observations

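No marker of blood or fat was called. All 5 red cell markers had negative log2 fold changes (median -0.69), and their sum was 487 to 1195 CPM in sham and 365 to 595 CPM in UNx. The 4 tested adipocyte markers were negative too, with sums of 0.278 to 41.7 CPM in sham and 0.0461 to 26.3 CPM in UNx. The groups overlapped for both sums, and the adipocyte sums of UNx replicates 5 and 6 were above those of 5 of the 6 shams. All 4 mural and juxtaglomerular markers had positive values (median 0.35), and none was called.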
